A study of Mus musculus with 4 samples.

Results

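The segment of mouse chromosome 17 that holds the class II and class III genes of the major histocompatibility complex (MHC) was examined for islands of histone H4 acetylated at lysine 16 (H4K16ac). An island is a broad stretch of chromatin enriched in the mark, as called by the authors from sequenced immunoprecipitated DNA (ChIP-seq). The members were all islands that overlap the 1400 kb of chromosome 17 from position 34000001 onward on genome build mm9. Membership rested on position alone, but the segment itself was chosen with earlier results of these data known. They numbered 73 of 48278 islands in neural progenitor cells (NPC) and 64 of 40570 in embryonic stem cells (ESC), or 137 of 88848 in both lists together.

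Both cell types came from 46c, a mouse ES cell line with a GFP reporter in Sox1, a gene that becomes active in early neural cells. NPC were 46c cells taken after 5 days of differentiation with NB27 and Neuro2 supplements and sorted by flow cytometry for GFP, and ESC were undifferentiated 46c cells. Each had 1 H4K16ac library, made from chromatin cut with micrococcal nuclease and the same Millipore antibody, and 1 library of input DNA that was not used here. All material comes from 1 line, no difference between NPC and ESC had a replicate check, and no p-value was computed. The island reads came to 24386370 in the NPC list and 17935144 in the ESC list, and the depth of each whole library is unknown. The labelled cell types could not be checked by marker genes, because the lists hold no gene names.

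H4K16ac is laid down by the acetyltransferase KAT8 (also called MOF). It is found at many active genes and keeps arrays of nucleosomes from folding tightly in vitro. The class II genes encode the proteins that present peptides to helper T cells, together with the machinery that loads peptides, and are expressed mainly in specialised immune cells under the coactivator CIITA. The class III genes between the class II and class I genes form one of the most gene-dense stretches of mammalian chromosomes, and include genes of the complement system, the tumour necrosis factor family and the heat shock proteins, next to genes that every cell uses.

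The order of genes along the segment was taken from RefSeq on another build (GRCm38.p6), which gives names and neighbours but no mm9 positions. All 15 genes of the class II list and all 31 of the class III list were found there. From the first listed gene, H2-Oa, to the last, Ddx39b, lay 76 protein-coding genes. Where these genes lie within the 1400 kb, and whether other genes lie before or after them, was not determined. The class II list runs from H2-Oa over Brd2 (a reader of acetylated histones expressed in most cells), H2-DMa and the H2-DMb genes (peptide loading), Psmb9 and Psmb8 (subunits of the immunoproteasome) with Tap1 and Tap2 (the peptide transporter), and H2-Ob, to the classical genes H2-Ab1, H2-Aa and H2-Eb1. The class III list follows, with Notch4, Pbx2, Tnxb, the complement genes C4b, Cfb and C2, the histone methyltransferase gene Ehmt2, Neu1, the Hsp70 genes Hspa1b and Hspa1a, then Vars, Msh5, Bag6, Tnf and Lta. No mm9 annotation was used here, so islands are given by position and by distance along the segment and are not assigned to genes.

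Islands covered 40.3% of the segment in NPC and 25.2% in ESC. Counted in the 200 bp windows from which islands are built, the exact 95% intervals were 39.1% to 41.4% in NPC and 24.2% to 26.2% in ESC. Neighbouring windows are not independent, and no interval here covers variation between cultures. The covered bases were 563.6 kb in NPC and 352.4 kb in ESC, a ratio of 1.60 (1.51 to 1.70). On the rest of chromosome 17 the ratio was 1.70 (1.68 to 1.72), so the gain in coverage in the segment lay close to that of its chromosome. A total of 669.2 kb, or 47.8% of the segment, lay in no island of either list, against 79.2% on the rest of chromosome 17.

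**Figure D1:**
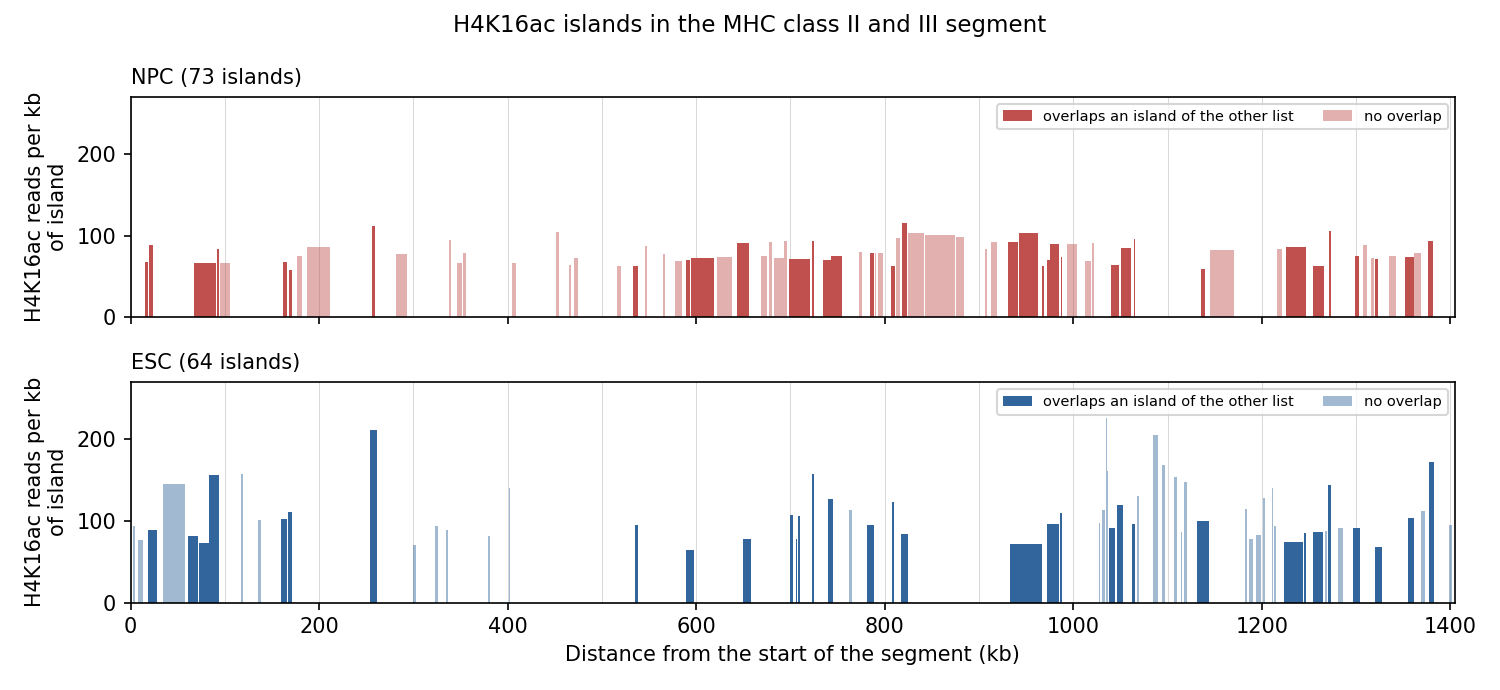
Each bar is 1 H4K16ac island drawn to scale, with its width along the segment (kb from the segment's start) and its height in reads per kb of island, for NPC (top, 73 islands) and ESC (bottom, 64 islands). Full colour marks islands that overlap an island of the other list; no NPC island reaches 120 reads per kb, and the tallest ESC island reaches 226.

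The segment was more covered than most of its chromosome in both cell types. Its coverage was 2.39 times that of the rest of chromosome 17 in NPC and 2.54 times in ESC. Among the 940 stretches of the same length on chromosome 17, laid in 100 kb steps, the segment stood at the 82.9 percentile in NPC and the 85.5 percentile in ESC. These are places in an order of overlapping stretches and not tests. The number of islands differed more from the chromosome than their width did. The segment held 5.21 islands per 100 kb in NPC, against 2.47 on the rest of chromosome 17, and 4.57 in ESC, against 1.79. Island width had a median of 4800 bp in NPC (interval 4400 to 6800 bp) and 3300 bp in ESC (2600 to 5200 bp). On the rest of the chromosome the medians were 4600 bp in NPC and 3400 bp in ESC, within those intervals.

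In 100 kb steps, numbered 1 to 14 along the segment, coverage ranged from 11.4 to 73 kb in NPC, with a median step of 36 kb. In ESC it ranged from 1.2 to 71.2 kb, with a median of 19.6 kb. No step was without an island in either list, whereas 355 of the 953 steps of chromosome 17 held none in NPC and 331 held none in ESC. These include the first 30 steps of the chromosome, which hold no island of either list. All 14 steps in NPC and 13 of 14 in ESC lay above the median step of chromosome 17, which had 4.4% of its bases covered in NPC and 2% in ESC. NPC covered more bases than ESC in 11 of the 14 steps, where 62.3% of all chromosome 17 steps with an island did so, and fewer in 3 steps, where 37.3% did. The difference was at least 2-fold in 6 of 14 steps (42.9%), close to the 43.2% of chromosome 17. Steps at least 2-fold more covered in ESC numbered 0 of 14, which allows a share of up to 21.4%, against 25.5% of chromosome 17 steps. These chromosome 17 shares are over 730 steps with an island in either list, and only 490 of them held islands of both. A step with an island in 1 list only counts there as at least 2-fold different. All 14 steps of the segment held islands of both lists, so the sets compared are unlike.

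**Figure D2:**
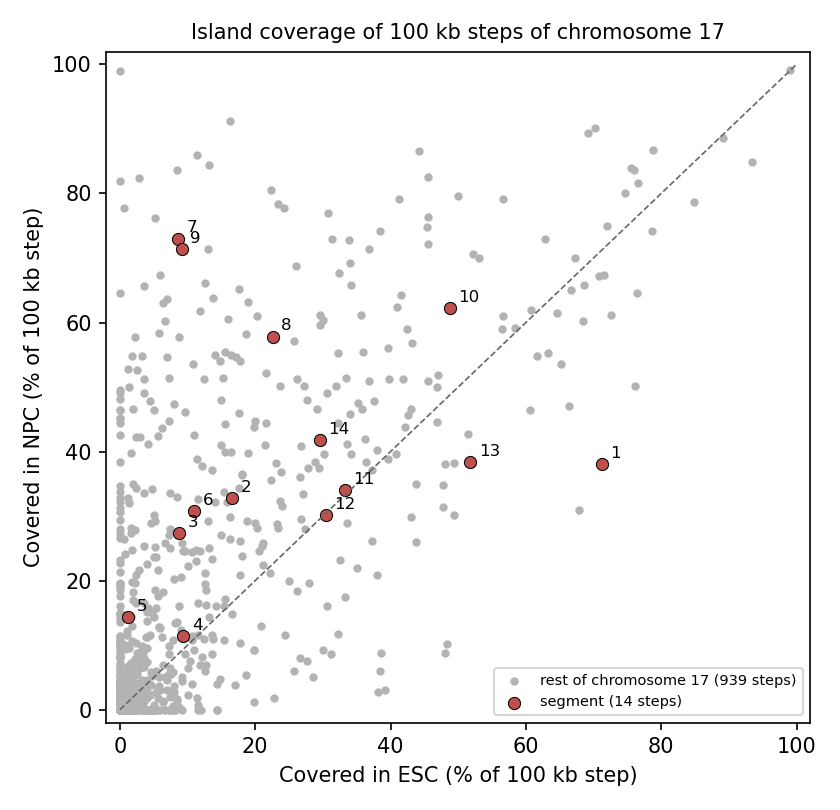
Each point is a 100 kb step of chromosome 17, with the share of its bases in NPC islands on the vertical axis and in ESC islands on the horizontal axis; the dashed line marks equal coverage. The 14 numbered steps of the segment include 2 far above the line (7 and 9, with 73% and 71.4% in NPC against 8.6% and 9.2% in ESC) and 1 far below it (step 1, with 38% in NPC against 71.2% in ESC).

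Step 1, the start of the segment (34000001 to 34100000), stood out for ESC coverage. Islands covered 38 kb of it in NPC and 71.2 kb in ESC, a difference of -33.2 percentage points. By that difference it was the sixth lowest of the 953 steps of chromosome 17, and by ESC coverage alone it was at rank 16. Most of the excess lay in 1 island called in ESC only, at 34034201 to 34057600, which was 23.4 kb wide and held 3405 reads at 146 reads per kb. It held more reads than any other ESC island of the segment and was the widest one without an NPC counterpart. The nearest NPC island lay 9.8 kb away. Another region of step 1 called in ESC only, at 34007601 to 34013000, spanned 5.4 kb with 411 reads.

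The excess of NPC coverage in step 2 (32.8 kb in NPC, 16.6 kb in ESC) and step 3 (27.4 kb in NPC, 8.8 kb in ESC) came with islands called in NPC only. The widest of them, across the border of both steps, spanned 24.8 kb at 34186601 to 34211400 with 2140 reads at 86.3 reads per kb. Another, at 34281201 to 34293400 in step 3, spanned 12.2 kb with 949 reads. The 24.8 kb island lay in a stretch of 82.2 kb (34171201 to 34253400) in which no ESC island was called. Right after that stretch came the second densest ESC island of the segment, at 34253401 to 34261800, with 1774 reads in 8.4 kb or 211 reads per kb. Inside it lay the second densest NPC island of the segment, at 34255801 to 34259600, with 426 reads in 3.8 kb or 112 reads per kb. The second densest islands of both lists thus fell together here, which is seen in the map of islands at about 260 kb from the start.

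Steps 4 and 5 were the least covered part of the segment in NPC, and step 5 the least covered in ESC. Step 4 had 11.4 kb in NPC islands and 9.4 kb in ESC islands, and step 5 had 14.4 kb in NPC and 1.2 kb in ESC. Not 1 base was shared between the lists in either step. The longest stretch of the segment with no ESC island, 132.8 kb at 34402601 to 34535400, began in step 5. The 6 NPC islands that overlap this stretch covered 15.8% of it, at a median of 65.4 reads per kb. A pair of gaps of 41.8 and 41.2 kb in it, from 34409201 and from 34474601, held no island of either list. The longest such gap of the segment was 42 kb at 34211401 to 34253400, in step 3.

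The middle of the segment had the widest difference in favour of NPC. In step 7 (34600001 to 34700000) islands covered 73 kb in NPC and 8.6 kb in ESC. Step 9 (34800001 to 34900000) had 71.4 kb in NPC and 9.2 kb in ESC. By the difference, 64.4 and 62.2 percentage points, these steps stood at ranks 11 and 12 of the 953 steps of chromosome 17. Step 8 between them had 57.8 kb in NPC and 22.6 kb in ESC. The few ESC bases there lay mostly inside NPC islands, at 81.4%, 71.7% and 82.6% of the ESC island bases of steps 7, 8 and 9. NPC islands covered 73%, 57.8% and 71.4% of all bases of these steps, so most bases of any kind lay inside them.

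In step 9 the NPC islands were dense, for NPC, as well as wide. The step average was 100.2 reads per kb in NPC and 92.0 in ESC before scaling, but 4.11 in NPC and 5.13 in ESC per 1000000 island reads. The ESC list was empty from 34824201 to 34933200, over 109 kb, of which the 6 overlapping NPC islands covered 62.9% at 84.1 to 103 reads per kb. In 5 of them, from 34824801 to 34918600, no base was shared with any ESC island, and together they held 6576 reads. The widest island of the segment in NPC was one of these, at 34842401 to 34874800, with 3274 reads in 32.4 kb or 101 reads per kb. The densest NPC island of the segment lay just before the stretch, at 34818001 to 34823600, with 644 reads in 5.6 kb or 115 reads per kb, and an ESC island covered all of its bases.

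Step 10 (34900001 to 35000000) was the step in which the lists shared most bases. Islands covered 62.2 kb in NPC and 48.8 kb in ESC, of which 42.2 kb were common to both. The widest ESC island of the segment lay here, at 34933201 to 34967200, with 2425 reads in 34 kb or 71.3 reads per kb. NPC islands covered 85.3% of it. The region at 34930401 to 34969000 had 96.8 reads per kb in NPC and 71.3 in ESC. Per 1000000 island reads, the log2 of NPC over ESC density was -0.0024 there.

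**Figure D3:**
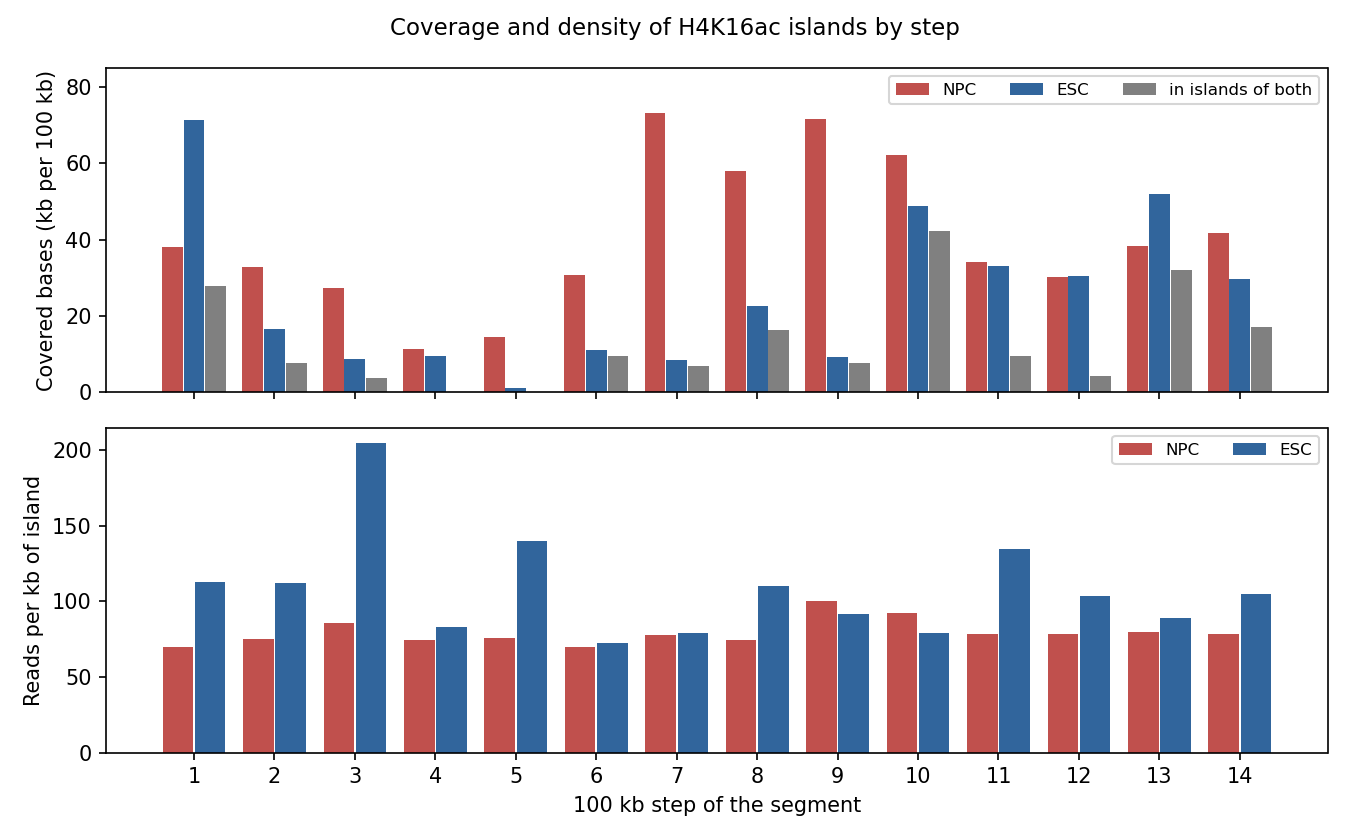
The upper panel gives the bases covered by islands in each 100 kb step of the segment (kb), with NPC left of ESC and the bases in islands of both lists in grey; the lower panel gives reads per kb of island in the same steps. NPC coverage peaks in steps 7 to 10 at 57.8 to 73 kb, ESC coverage in step 1 at 71.2 kb, and unscaled density is higher in NPC in steps 9 and 10 alone. Per 1000000 island reads it is higher in NPC in 0 of 14 steps, which allows a share of up to 21.4%. On that scale only 1.59% of the regions called in both lists on the rest of chromosome 17 are denser in NPC.

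In steps 11 to 14 the covered amounts were closer, but the islands often lay at different places. Step 11 had 34 kb in NPC and 33.2 kb in ESC with 9.6 kb in common, and step 12 had 30.2 kb in NPC and 30.4 kb in ESC with 4.4 kb in common. Step 13 was more alike, with 38.4 kb in NPC, 51.8 kb in ESC and 32 kb in common. It held the third densest NPC island of the segment (35271801 to 35273200, 106 reads per kb) and the third widest ESC island (35223201 to 35243400, 20.2 kb). Step 14 had 41.8 kb in NPC, 29.6 kb in ESC and 17.2 kb in common. Near-equal coverage in step 12 thus went with 14.6% of NPC bases and 14.5% of ESC bases shared.

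The longest stretch of the segment without an NPC island crossed the border of steps 11 and 12. It ran for 69 kb from 35066001 to 35135000. The 7 ESC islands that overlap it covered 31.0% of it, at a median of 147 reads per kb. Of these, 6 shared no base with any NPC island, from 35067601 to 35120600, and were between 1400 and 6000 bp wide. One of them, at 35084401 to 35090400, was the third densest ESC island of the segment, with 1228 reads in 6 kb or 205 reads per kb. The densest, at 35034401 to 35035400, lay nearby with 226 reads in 1 kb, in a run of 4 islands of 800 to 3600 bp called in ESC only (35026801 to 35037000). A further run of 6 islands in ESC only lay at 35182001 to 35215400, at 77.6 to 140 reads per kb. Between the longer runs, at 35144601 to 35170400, lay the second widest NPC island of the segment, with 2112 reads in 25.8 kb or 81.9 reads per kb and no shared base.

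ESC islands of the segment were denser than NPC islands. The median island of the segment had 78.2 reads per kb in NPC (interval 73.8 to 84.1) and 97.9 in ESC (93.6 to 112). These intervals are over islands of 1 library per cell type and do not test a difference between the cell types. Per 1000000 island reads of each list the medians were 3.21 reads per kb in NPC and 5.46 in ESC. On the rest of chromosome 17 the unscaled medians were 77.8 in NPC and 92.8 in ESC. NPC islands were alike among themselves, at 57.6 to 115 reads per kb, whereas ESC islands spanned 64.4 to 226. The SD across islands was 13.4 reads per kb in NPC and 35.9 in ESC.

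Islands with at least 120 reads per kb numbered 0 of 73 in NPC, which allows a share of up to 4.11%, and 19 of 64 in ESC (29.7%, exact interval 18.9% to 42.4%). The rest of the chromosome had 2.03% in NPC and 26.5% in ESC, so neither share of the segment could be told from it. Islands of at least 8000 bp made up 24 of 73 in NPC (32.9%, 22.3% to 44.9%) and 13 of 64 in ESC (20.3%, 11.3% to 32.2%). Elsewhere on the chromosome such islands made up 27.4% in NPC and 18.97% in ESC. Islands that were narrow (up to 2000 bp) as well as dense numbered 0 of 73 in NPC and 6 of 64 in ESC (9.38%, 3.52% to 19.3%). The rest of the chromosome had 1.51% in NPC and 14.4% in ESC, which the counts of the segment could not be told from.

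**Figure D4:**
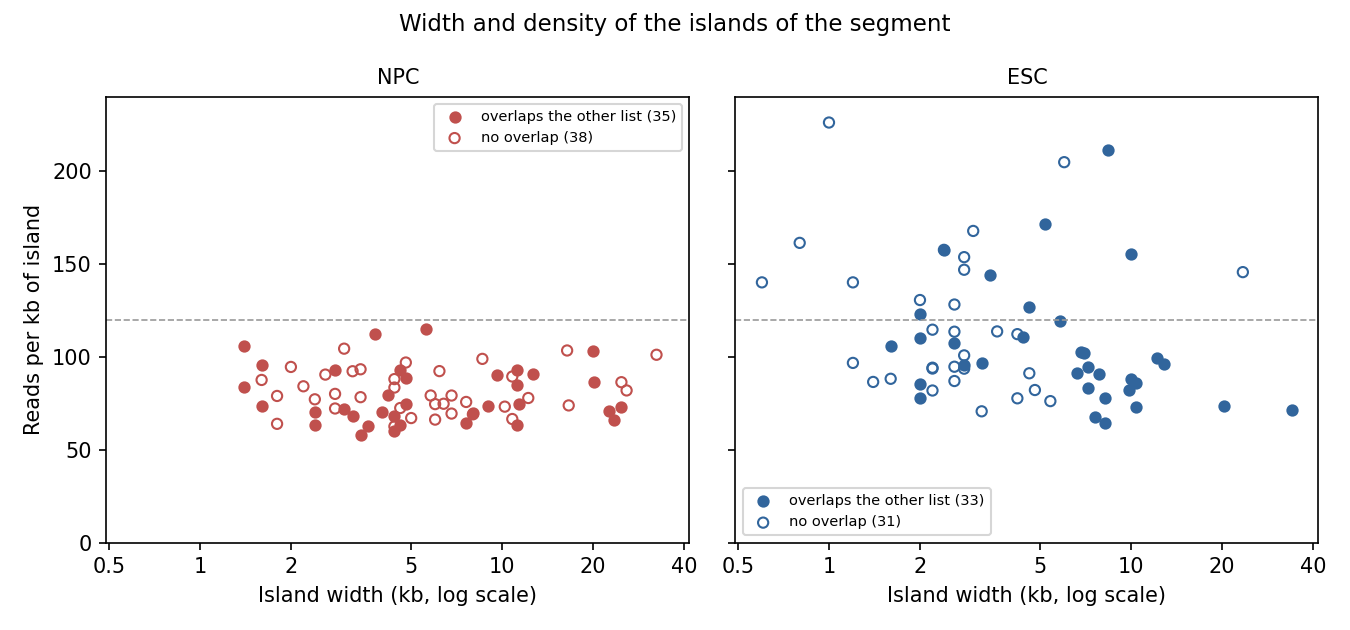
Each point is an island of the segment, with its width (kb, log scale) and its reads per kb, for NPC (left) and ESC (right); filled points overlap an island of the other list and the dashed line marks 120 reads per kb. All 73 NPC islands lie below the line and 19 of 64 ESC islands above it, most of them narrower than 5 kb.

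About as many islands as not had a called counterpart. In NPC 35 of 73 islands (47.9%, 36.1% to 60.0%) shared at least 1 base with an ESC island, and in ESC 33 of 64 (51.6%, 38.7% to 64.2%) shared one with an NPC island. Elsewhere on chromosome 17 the shares were 35.3% in NPC and 46.8% in ESC. The NPC share of the rest lay just below the segment's interval, and the ESC share lay inside it. By bases the segment was no more alike than its chromosome. The 185.2 kb common to both lists made up 32.9% of NPC and 52.6% of ESC island bases in the segment, against 35.3% and 60.0% on the rest.

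Islands without a counterpart were compared with the others in each cell type by medians, given without intervals. The 38 such NPC islands were no narrower than the others (median 5400 bp, against 4600 bp for those with a counterpart), with a median of 79.1 reads per kb against 73.8. The 31 such ESC islands were narrower (2600 bp against 7000 bp) and denser (112 reads per kb against 96.3). The ESC pattern was also that of the rest of chromosome 17 (2200 bp against 5600 bp, and 104 reads per kb against 85). There, NPC islands without a counterpart were narrower and less dense than the others (4200 bp against 6200 bp, and 76.2 reads per kb against 81.0). Unshared islands held 52.6% of the segment's NPC reads and 34.6% of its ESC reads, close to the 50.1% in NPC and 31.5% in ESC of the rest of the chromosome.

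Merging the islands of both lists gave 96 regions, of which 38 were called in NPC only, 31 in ESC only and 27 in both. As shares these were 39.6%, 32.3% and 28.1%, against 48.3%, 29.1% and 22.6% of the regions of chromosome 17 and 44.8%, 34.7% and 20.6% of those of all nuclear chromosomes. Reads that fell outside islands are missing from both lists. Absence of an island is therefore not absence of the mark, and no ratio was formed for regions of a single list.

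In the 27 regions called in both cell types, reads per 1000000 island reads (RPM) were lower in NPC for most. The median log2 NPC over ESC was -0.90 (interval -1.47 to -0.34), with an SD across regions of 1.03, and 4 of 27 regions (14.8%) lay above 0, against 25.1% on the rest of chromosome 17 and 22.1% on all nuclear chromosomes. On the rest of chromosome 17 the median over 693 regions was -0.43 (-0.48 to -0.38). The value was at least 2-fold lower in NPC in 12 of 27 regions (44.4%, exact interval 25.5% to 64.7%), against 26% of shared regions on chromosome 17 and 28.1% on all nuclear chromosomes. It was at least 2-fold higher in 1 of 27 (3.70%, interval 0.0937% to 18.97%), against 7.08% and 6.16%. These shares of chromosome 17, which include the segment, and of all nuclear chromosomes lay inside the segment's intervals. Without the segment, 25.3% of the chromosome's shared regions were at least 2-fold lower, just below the interval. In all 12 lower regions the called stretch was narrower in NPC, so that NPC reads of the uncalled part are missing from their ratios. Reads were summed over called bases, so a lower total and a narrower stretch are not independent. Unscaled reads per kb were lower in NPC in 11 of the 12 as well, where 6 of all 27 shared regions were denser in NPC.

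Scaling moved these values together. When reads were scaled by the reads in regions called in both lists, every log2 value rose by 0.41, the segment's median became -0.49 and 9 of 27 regions lay above 0. Then 10 of 27 regions (37.0%, interval 19.4% to 57.6%) were at least 2-fold lower, against 16.6% on the rest of chromosome 17 and 19.1% on all nuclear chromosomes, both below that interval. The density of the shared regions gave a similar picture without scaling. The median log2 of reads per kb was -0.45 (-0.62 to -0.13) in the segment and -0.05 (-0.08 to -0.02) on the rest of the chromosome, and 6 of 27 regions (22.2%) were denser in NPC, against 44.0% on the rest. Per 1000000 island reads 1 of 27 was denser in NPC (3.70%), against 1.59% on the rest. NPC had the wider called stretch in 10 of the 27 regions and ESC in 17, whereas on the rest of the chromosome NPC was wider in 350 and ESC in 285 of 693. With 1 library per cell type this difference between the segment and its chromosome could not be tested.

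**Figure D5:**
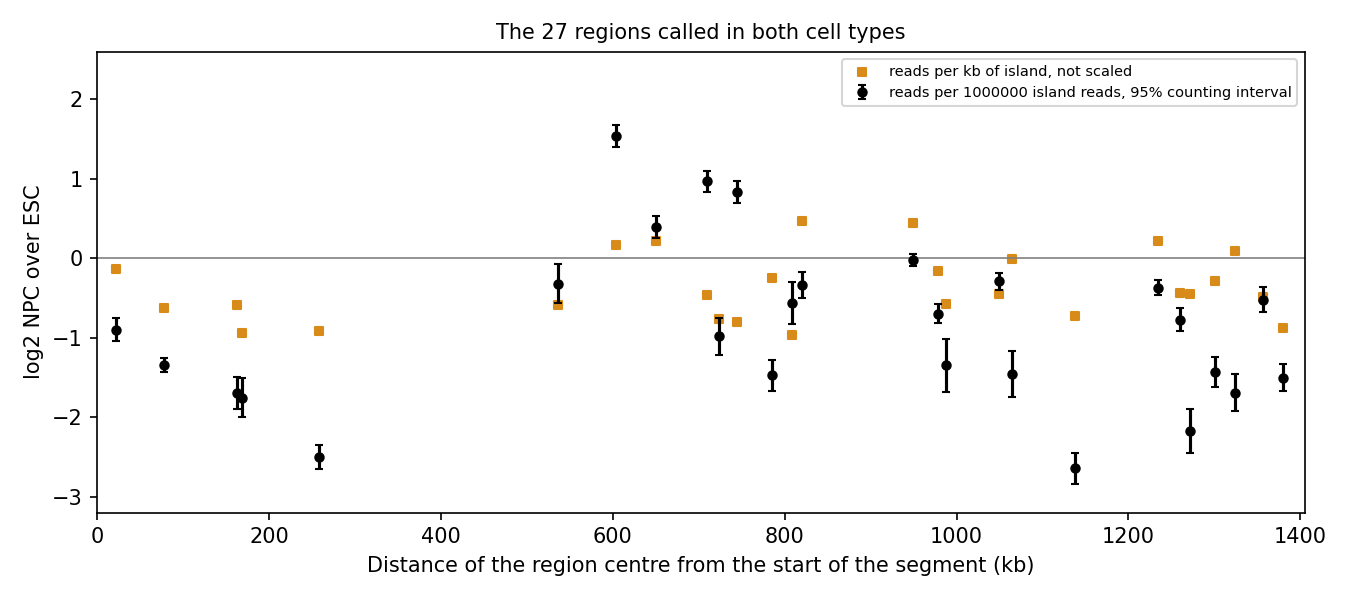
Each black point is 1 of the 27 regions called in both cell types, with log2 NPC over ESC of reads per 1000000 island reads and its 95% counting interval, against the distance of its centre from the segment's start (kb); orange squares give log2 of reads per kb, not scaled. The 4 black points above 0 lie between 600 and 750 kb from the start, and the lowest, at -2.65, lies at about 1140 kb.

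All 4 shared regions with more RPM in NPC, when scaled to all island reads, lay in steps 6 to 8. The highest value was at 34589201 to 34619000, with 2086 NPC reads in 28.8 kb and 528 ESC reads in 8.2 kb, or 1.54 in log2. The next were at 34698401 to 34721000 (1603 NPC reads in 22.6 kb, 604 ESC reads in 6.2 kb, log2 0.96) and at 34734601 to 34754800 (1409 NPC reads in 19.4 kb, 582 ESC reads in 4.6 kb, log2 0.83). In each of them a wide NPC island met narrower ESC islands, and reads of the uncalled ESC part are missing from the ratio. The first holds an NPC island of 24.8 kb at 34594201 to 34619000, which ties for the third widest of the segment. By reads per kb before scaling, the second and the third were lower in NPC, with log2 values of -0.46 and -0.80. The first was higher, at 0.17, as was the fourth, at 34643601 to 34657800, with 0.22. When reads per kb were scaled to all island reads, all 4 regions were less dense in NPC. The log2 values were then -0.27, -0.90, -1.24 and -0.23, in the same order.

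The lowest values lay outside that middle part. At 35131601 to 35143800 NPC had 263 reads in 4.4 kb and ESC 1210 reads in 12.2 kb, which gives -2.65 in log2 (counting interval -2.84 to -2.45). The dense region at 34253401 to 34261800 described above had 426 reads in NPC and 1774 in ESC, for a log2 value of -2.50 (-2.66 to -2.35). At 35270201 to 35273600 NPC had 148 reads in 1.4 kb and ESC 490 reads in 3.4 kb, for a value of -2.17 (-2.45 to -1.90). In these 3 regions the reads per kb were lower in NPC as well, with log2 values of -0.73, -0.91 and -0.45 before scaling.

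Over the whole segment, reads in islands came to 45883 in NPC and 36789 in ESC, or 1881.5 RPM in NPC and 2051 RPM in ESC. The log2 was -0.12 (-0.14 to -0.10, counting error only), so the segment took a slightly smaller part of island reads in NPC. This direction depends on the scaling, since the log2 was 0.29 when reads were scaled by regions called in both lists. The rest of chromosome 17 had a log2 of 0.10 (0.10 to 0.11) with the first scaling. The second scaling raises both values by the same 0.41, so the segment stays below the rest of its chromosome. Single steps differed far more than the segment's total, and ranged in log2 RPM from -2.04 in step 1 to 2.64 in step 9.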

How the data were processed

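The labels list 4 libraries, of which the lists used here hold the 2 H4K16ac libraries. The tools named in the submitters' processing notes are SICER 1.1, bedtools 2.10.1, SAMtools 0.1.7, Bowtie 0.12.7 and CASAVA 1.8.2, with genome build mm9. SICER joins windows with more reads than background into islands, and the deposited lists' names state 200 bp windows, 600 bp gaps and an FDR of 0.01. The deposited whole number per island has no header and was read as a count of H4K16ac reads, taken as unscaled because the values are whole numbers; the labels do not state this. Duplicate removal and the use of input are not given in the sources used here.

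Positions were moved by 1 to count from 1. Overlap needed 1 shared base. Intervals are exact Clopper-Pearson intervals of shares (95%), order-statistic intervals of medians, or counting intervals of read shares, which cover counting error only, since no molecular identifiers mark independent molecules. A share of 0 is given with the limit set by 3 counts. Reads of a border island were counted whole for totals and by bases inside for steps. Steps run in 100 kb from position 1 to the last island of chromosome 17.

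Named were all steps, the 3 widest, most read and densest islands of each list, the 3 highest and lowest shared regions, the 3 widest regions in 1 list only and the longest stretches without an island. Runs of islands and gaps of neither list were picked after their values were seen. The segment and the gene lists were chosen with earlier results of these data known. The overlap code found all 705 overlaps made in 1746 simulated chromosome 17 islands and equalled bedtools 2.31.1 on the real lists. Of the simulated count ratios on those islands, 95.7% lay in their intervals. Python 3.11.15, numpy 2.4.6, pandas 2.3.3, scipy 1.17.1 and matplotlib 3.10.9 were used.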

Additional observations from a re-analysis of the deposited data

How the results depend on the processing

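Recomputing 17 values under other settings gave 56 results, of which 39 lay inside the reported interval, 16 lay outside it and 1 changed sign. The cause was not tested. No paired analysis was possible because each cell type has 1 H4K16ac library and the result comes from no test. Covered shares were 34.9% in NPC and 22.3% in ESC with islands of at least their list's median reads, 42.2% and 26.5% with gaps of up to 2000 bp merged, and 37.2% and 24.05% with borders 100 kb further out. With borders 100 kb further in, which leaves out steps 1 and 14, ESC coverage was 21.0% and the ratio NPC over ESC 1.92. Median widths were 8000 bp in NPC and 5900 bp in ESC with the read minimum, and 7600 bp in NPC with gaps merged. The ratio of median densities, 0.799 unscaled, was 0.588 per 1000000 island reads. Coverage of the segment over that of chromosome 17 in NPC was 2.27 without the first 30 steps, a setting chosen after seeing the data, against 2.34. The log2 of segment reads was -0.22 scaled to chromosome 17 and 0.29 scaled to regions in both lists. At 1.5-fold, 49.6% of chromosome 17 steps were higher in NPC and 28.9% in ESC. Library depth is unknown, so its part in islands found in a single list cannot be told apart.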

Other observations

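Coverage of the 14 steps of the segment in NPC and in ESC had a Spearman rho of 0.21. On the rest of chromosome 17 rho was 0.61 over the 476 steps with an island in both lists and 0.68 over all 939 steps. These are descriptions, chosen after the values were seen, over steps that share libraries and chromosome and that span a narrower range of coverage inside the segment than outside. Of the 38 NPC islands of the segment without a counterpart, 24 (63.2%) lay within 10 kb of an ESC island, against 37.6% of such NPC islands on the rest of the chromosome. Of the 31 ESC islands without one, 16 (51.6%) lay within 10 kb of an NPC island, against 45.2%. Islands of both lists were also more closely spaced in the segment, and the part of spacing in these shares was not tested.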
